A study of Mus musculus with 15 samples.

Results

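C3, C4b, C1s1 and Serping1 are 4 complement genes that were followed across 15 single Tomato+ stromal cells of mouse inguinal white fat. They were taken by symbol from a deposited table of 8446 genes, in which each of the 4 has 1 row. The cells came from adult C57BL/6 mice of the genotype Prrx1-CreERT;Tomato, all of which received tamoxifen at 2 mg per 30 g of body weight once daily for 3 days. CreERT is a tamoxifen-activated Cre recombinase, here under the control of the mesenchymal homeobox gene Prrx1, and the Tomato mark that it switches on stays after Prrx1 itself has been turned off. All cells form 1 group with 1 library per cell. They were digested with collagenase for 1 h at 37 °C, sorted for Tomato and picked singly. The labels name no animal, so the number of mice is unknown, the group counts as 1 sample, and correlations over cells are descriptions with no p-value. Values are log2(FPKM + 1) unless stated, where FPKM is a fragment count scaled to transcript length and library size, and a gene was counted as detected in a cell at 1 FPKM or more.

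Complement is a cascade of secreted proteins of innate immunity. In the classical pathway the proteases C1r and C1s, held by C1q, cleave C4 and C2, and the resulting enzyme cleaves C3, whose fragments mark surfaces and start the terminal steps. In the alternative pathway factor D activates factor B, and the resulting enzyme cleaves C3. C1 inhibitor, the product of Serping1, blocks C1r and C1s and also plasma kallikrein. The liver makes most of the plasma complement, and fibroblasts and fat stromal cells are known local sources.

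Of 16 stromal progenitor genes with a row, 12 to 16 were detected in each cell, with the lowest count in cell 13. Over all rows, 4369 of 8446 were detected in each cell. Of the marker lists of other cell types, 2 of 12 macrophage and monocyte genes had a row. Csf1r, a macrophage receptor, passed 1 FPKM in 4 cells and reached 6.39 in cell 2, and Cd14 passed it in none. The lists of lymphoid cells, hepatocytes, mesothelium and epithelium were not analysed here. Cells 5 and 13 stood apart through genes of mural cells, which surround vessels. The summed level of the 5 mural genes with a row was 4519 FPKM in cell 5 and 2449 FPKM in cell 13, and between 1.68 and 42.2 FPKM in the other 13 cells. Of 2 endothelial genes with a row, Esam, an adhesion molecule of vessels, was also highest in cells 13 (10.90) and 5 (7.83), while the receptor gene Tek stood at 0.06 and 0.15 there. The smooth muscle gene Acta2 was at 10.23 in cell 5 and 0.45 in cell 13. Cell 13 also had Cdk1, a kinase of mitosis, at 11.34, and Pdgfra, the receptor of fibroblastic progenitors, at 0.20. Of genes listed for committed preadipocytes, Pparg was highest in cell 13 (9.29), and Fabp4 was highest in cells 13 and 4 (13.69 in each). Correlations are therefore given with and without cell 13.

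Of the 4 genes, C4b and C1s1 have near-identical copies that limit what their values can tell apart, so the ends of their coding sequences are shown first. The library kit reads the 3′ end of transcripts. These are the last 90 coding bases of C4b and C1s1 with the aligned stretches of C4a and C1s2, in GENCODE M21 transcripts of GRCm38, with capitals at bases that differ within a pair.
C4b: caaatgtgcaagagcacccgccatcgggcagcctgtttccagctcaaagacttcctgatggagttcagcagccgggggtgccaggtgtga
C4a: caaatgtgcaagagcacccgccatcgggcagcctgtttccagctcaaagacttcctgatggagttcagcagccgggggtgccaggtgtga
C1s1: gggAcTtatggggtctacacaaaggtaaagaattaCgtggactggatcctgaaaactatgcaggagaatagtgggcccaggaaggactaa
C1s2: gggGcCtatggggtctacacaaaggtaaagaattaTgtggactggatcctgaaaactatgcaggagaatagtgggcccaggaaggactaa
C4b and C4a did not differ at any of the 90 bases, and C1s1 and C1s2 differed at 3. Over the whole transcripts identity was 96.1% for C4b and C4a (5367 aligned bases) and 95.9% for C1s1 and C1s2 (2661 aligned bases). Of the 50-base words in the last 500 bases of C4b, 38.1% also occur in C4a, and of those of C1s1, 18.0% also occur in C1s2. Reads from such words cannot be told apart, and how the authors assigned them is not given in the sources used here. C3 and C4b descend from a common ancestor but shared no 50-base word.

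C4b (ENSMUSG00000073418) lies at chr17:34728380-34743882 on the minus strand of GRCm38 and C3 (ENSMUSG00000024164) at chr17:57203970-57228136, also on the minus strand. Each has 41 exons in the longest coding transcript. C4a, the copy of C4b, lies at chr17:34809092-34823464, where the annotation calls it a processed transcript with no coding sequence. C1s1 (ENSMUSG00000038521, chr6:124530345-124542359, minus strand, 12 exons) sits in a cluster with C1ra, C1rb and C1s2, and is overlapped by the antisense gene Gm16567 on the plus strand, whose reads may not have been told apart. Serping1 (ENSMUSG00000023224, chr2:84765387-84775444, minus strand, 8 exons) has no overlapping gene in the annotation.

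Serping1, the inhibitor, was the highest of the 4 genes and was high in every cell. Its lowest value was 7.12 in cell 13, its median 10.44 and its highest 12.47 in cell 8, followed by 12.17 in cell 2. The next lowest values were 8.25 in cell 12 and 8.60 in cell 9. In its median cell 99.2% of all rows stood below it, and 38 rows had a higher median. Its SD over cells was 1.43, and 71 of the 100 genes nearest to it in mean had a smaller SD.

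C1s1, the protease that the inhibitor blocks, was lower and the steadiest of the 4. It ranged from 3.97 in cell 13 to 8.17 in cell 8 with a median of 7.32, and 8 of the cells lay between 7.28 and 7.99. Cell 1 was the next lowest at 4.92. Its SD of 1.22 was small for its level: 14 of the 100 genes nearest in mean had a smaller SD, and 11 without cell 13. Serping1 was higher than C1s1 in all 15 cells, by 3.34 ± 1.11 (mean ± SD, n = 15 cells).

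C3, the central component of the cascade, was high in most cells and low in 4. Its median was 9.19 and its highest value 11.75 in cell 10, followed by 10.72 in cell 6, 10.31 in cell 1 and 10.15 in cell 7. It was lowest in cell 13 (2.15), followed by cells 9 (4.55), 8 (5.49) and 5 (5.53), and the other 11 cells lay at 7.62 or higher. Its SD was 2.65, against a median SD of 1.30 among the 100 genes nearest in mean, of which 93 had a smaller SD. Without cell 13 its SD was 2.15, and 89 of these genes had a smaller SD.

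C4b, which is cleaved upstream of C3, spread the most. It stood at 12.27 in cell 6 and 11.37 in cell 15, between 7.12 and 9.24 in cells 1, 2, 4, 7, 8 and 12, and at 5.17 or lower in the other 7 cells. Its median was 7.12 and its lowest values were 0.91 in cell 13 and 1.99 in cell 9. Its SD was 3.30, and 96 of the 100 genes nearest in mean had a smaller SD. It was detected in 14 of 15 cells (93.3%, exact 95% interval 68.1% to 99.8%), while C3, C1s1 and Serping1 were detected in all 15 (interval from 78.2%). The intervals cover counting error only and treat the 15 cells as independent, although the number of mice is unknown. They do not carry over to other mice. Since 4369 rows passed 1 FPKM in each cell, this threshold is a rank within the cell. For comparison, 12.1% of all rows were detected in every cell.

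**Figure D1:**
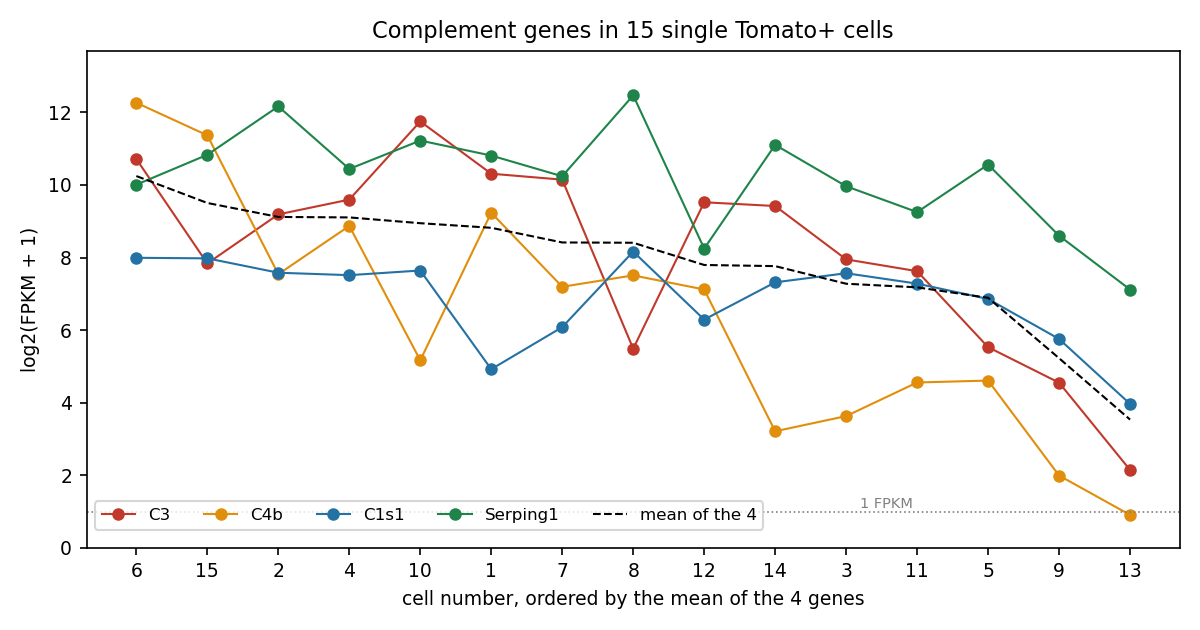
Values of the 4 genes as log2(FPKM + 1) (vertical axis) in each of the 15 cells, ordered along the horizontal axis by the mean of the 4 genes (dashed line), with lines joining the values of 1 gene as a guide to the eye. Serping1 stays between 7.12 and 12.47, while C4b spans 0.91 to 12.27, and all 4 genes are lowest in cell 13 at the right.

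By median the order was Serping1 (10.44), C3 (9.19), C1s1 (7.32) and C4b (7.12), and neighbours in this order did not differ beyond their spread over cells. Serping1 exceeded C3 in 12 of 15 cells, and the mean difference of C3 minus Serping1 was -2.08 with an SD of 2.40. C3 exceeded C1s1 in 10 cells, by 1.26 on average with an SD of 2.42, and C4b exceeded C1s1 in 6. FPKM divides by length although the kit reads 3′ ends, which can understate long transcripts, and C3 (5136 nt) and C4b (5379 nt) are longer than C1s1 (2946 nt) and Serping1 (1768 nt). After the length was multiplied back, C3 stood above 99.4% of rows in its median cell, C4b above 95.8%, C1s1 above 93.1% and Serping1 above 99.2%, so that C3 passed Serping1 and C4b passed C1s1.

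The cells differed in which of the genes they favoured. Cell 6 had the highest mean of the 4 (10.25), followed by cells 15 (9.50) and 2 (9.12), and cells 9 (5.23) and 13 (3.53) the lowest. Cell 8 combined the highest Serping1 and C1s1 with a C3 of 5.49, which was 6.98 below its own Serping1. Cell 12 showed the reverse, with C3 at 9.52 and Serping1 at 8.25. Cell 15 had C4b 3.53 above C3, while cell 10 had C4b 6.58 below C3 and cell 14 had it 6.21 below. Beside the lowest values of all 4 genes, cell 13 also had low Col1a2, a fibrillar collagen gene (54.8 FPKM, lowest of the 15 cells), and the mean log2 value of the stromal list was lowest there (4.97). The part of the mural, endothelial and cell cycle genes of cell 13 in these low values was not tested. Cell 9, next lowest in C3 and C4b, had Col1a2 at 11.05 and a mural sum of 17.6 FPKM.

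Over all 15 cells the highest correlation among the 4 genes was that of C1s1 with Serping1, followed by C3 with C4b and C4b with C1s1. This order changed with single cells: C3 with C4b came first when cell 2, 8, 10 or 15 was left out (0.63 against 0.52 without cell 8). C3 had a rho near 0 with C1s1 and Serping1 once cell 13 was left out. Spearman correlations over the 15 cells, which share 1 normalization and an unknown number of mice, were 0.61 for C1s1 and Serping1 and 0.55 for C3 and C4b. They were 0.50 for C4b and C1s1, 0.43 for C4b and Serping1, 0.25 for C3 and Serping1 and 0.21 for C3 and C1s1. Without cell 13 these became 0.52, 0.45, 0.38, 0.30, 0.08 and 0.02 in the same order, and the mean over the 6 pairs fell from 0.42 to 0.29. Pearson's r was 0.66 for C1s1 and Serping1 (0.45 without cell 13) and 0.58 for C3 and C4b (0.42 without it).

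To read these values, each gene was also correlated with all 3948 other genes detected in at least 8 cells. The median rho lay between 0.014 and 0.036 for the 4 genes, and the 95th percentile between 0.49 and 0.53. For C1s1, 71 genes had a higher rho than Serping1 had, and 1.93% of the genes reached that rho. For C3, 149 genes were more like it than C4b. Without cell 13, 48.6% of all genes had a rho with C3 at least as high as that of C1s1. The correlation of C4b with C1s1 also rested on the 2 cells highest in C4b: without cells 6 and 15 it was 0.27, and without these and cell 13 it was 0.08. The number of rows at a cell's lowest value, the remaining measure of how narrow a library was, had rho between -0.39 (C1s1) and -0.13 (C3) with the 4 genes.

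**Figure D2:**
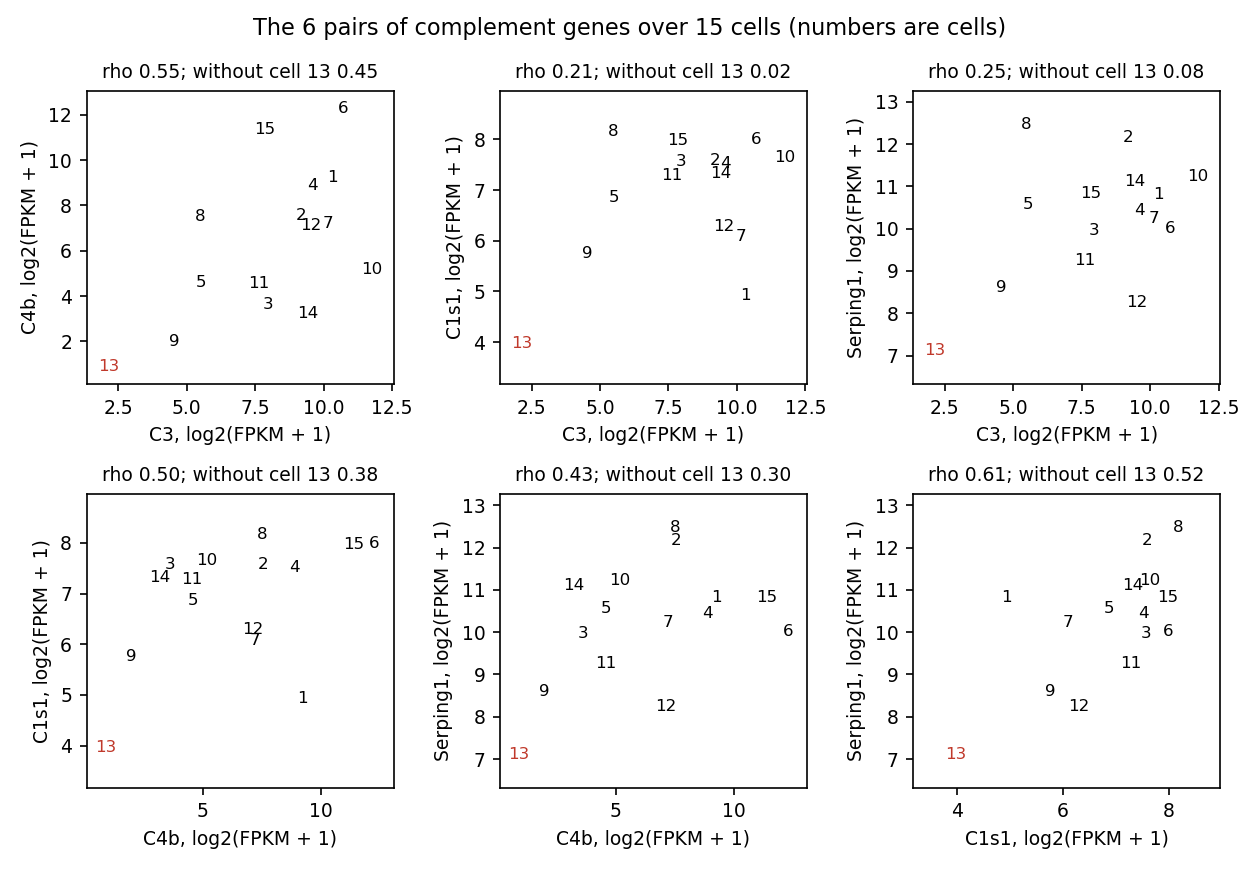
Each panel plots 1 pair of genes as log2(FPKM + 1) on both axes, with each of the 15 cells drawn as its number and cell 13 in red, and gives Spearman's rho with and without cell 13. Cell 13 lies at the lower left of all 6 panels, and without it rho falls to 0.02 for C3 and C1s1 and to 0.52 for C1s1 and Serping1.

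Of 54 fixed genes of the complement system, 23 had a row: 5 of the starting proteases and lectins, 6 of the C3 and C4 step, 1 of the terminal components, 8 regulators and 3 receptors or binding proteins. Of the 19 other than C3, C4b, C1s1 and Serping1, 14 were detected in 8 or more cells and 2 in all 15. Over all rows, 46.8% were detected in 8 or more cells. The remaining 31 genes, the C1q chains among them, were not analysed here.

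The proteases that start the classical pathway varied together. C1ra, the partner protease of C1s, had a median of 6.41, was highest in cells 6 (256 FPKM) and 8 (7.83) and stood at 0.28 in cell 13. Its rho with C1s1 was 0.80, and 0.76 without cell 13. C1rb and C1s2 followed C1s1 with rho of 0.83 and 0.88 (0.79 and 0.85 without cell 13). C1ra and C1rb are 98.0% identical and had rho of 0.98 with each other, so their separate values are uncertain, and C1s2 lay below C1s1 in all 15 cells by 2.77 ± 0.44 (mean ± SD). C1ra lies beside C1s1 on the opposite strand, and its sequence was not compared with that of C1s1. Colec12, a scavenger receptor of the collectin family, was detected in 9 cells and had rho of 0.78 with C1s1 (0.73 without cell 13).

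C4a had nearly the same order over cells as C4b. Its rho with C4b was 0.98 and C4b was higher in all 15 cells, by 1.03 ± 0.51 (mean ± SD, range 0.33 to 2.09), with both highest in cells 6 and 15. When the 2 genes were summed on the FPKM scale, rho with C3 was 0.54 (0.43 without cell 13), close to that of C4b alone.

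C2 and Cfb, which encode the catalytic subunits of the classical and alternative C3-cleaving enzymes and neighbour each other near C4a on chromosome 17, had correlations with C4b close to that of C3. C2 was highest in cells 2 (8.87) and 8 (8.30) and Cfb in cells 8 (9.34) and 1 (8.63). Each had rho of 0.54 with C4b (0.43 without cell 13). In cell 6, where C4b was highest, Cfb stood at 3.71, and in cell 15 at 3.61. Their rho with Serping1 was 0.66 for C2 and 0.69 for Cfb (0.58 and 0.62 without cell 13). A further annotated gene, Gm20547, overlaps both, so their reads may not be fully separate. Cfd, which encodes factor D and is a known product of fat cells, passed 1 FPKM in 4 cells and reached 6.65 in cell 4.

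C7, a terminal component that inserts into membranes, was detected in 6 cells, highest in cells 15 (6.58), 7 (6.13) and 10 (5.61). Its rho with C4b was 0.66 and with C1s1 0.64 (0.59 and 0.55 without cell 13). With 9 of 15 cells below 1 FPKM this order rests largely on low values.

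Among the regulators, Clu went with Serping1 and Cd55 with C3. Clu, the secreted chaperone that binds terminal complexes, had rho of 0.85 with Serping1 (0.82 without cell 13) and was highest in cell 2 (11.20). Vtn, also secreted, stood at 10.28 in cell 14 and 7.68 in cell 15 and had rho of -0.10 with Serping1. Cd55, a surface protein that takes apart C3-cleaving enzymes and also a marker of Dpp4+ progenitors, had rho of 0.73 with C3 (0.67 without cell 13) and of 0.05 with Serping1. It was highest in cells 1 (9.02) and 7 (6.35), the 2 cells highest in Dpp4 (7.93 and 6.87). Cr1l, a surface regulator of C3 and C4 cleavage, was detected in all 15 cells between 5.91 and 8.98. Cd59a, which blocks the membrane pore, passed 1 FPKM in 7 cells and reached 7.83 in cell 13, above all other cells, where C3 and C4b were lowest.

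**Figure D3:**
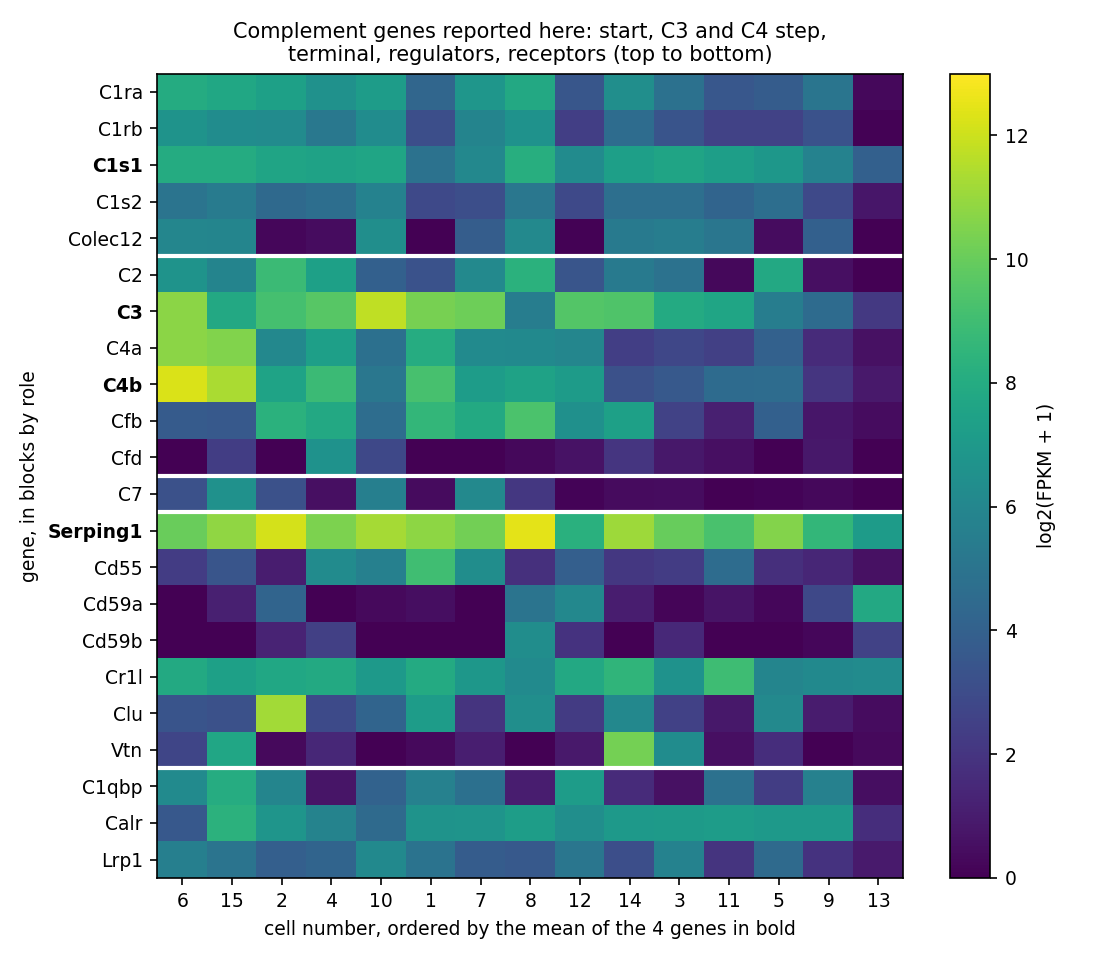
Heat map of log2(FPKM + 1) (colour scale) for the complement genes reported here (vertical axis, in blocks by role, the 4 genes of interest in bold) in the 15 cells (horizontal axis, ordered by the mean of the 4 genes). C4a repeats the pattern of C4b, the C1r and C1s genes share theirs, and Cd59a is highest in cell 13 at the right edge.

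The genes most like C3 were Tgfbr3 (rho 0.91), Emilin2 (0.90), Svep1 (0.86), Plpp3 (0.84) and Procr (0.83), and the same 5 came first without cell 13, with rho of 0.79 to 0.89. Tgfbr3 encodes the co-receptor betaglycan of the TGF-beta family, Emilin2 and Svep1 encode matrix proteins, Plpp3 a lipid phosphatase and Procr the receptor of protein C. Tgfbr3 was highest in cell 10 (8.17), as C3 was, and lowest in cells 13 (0.25) and 9 (2.30). Plpp3 ranged from 1.33 in cell 13 and 2.21 in cell 9 to 9.84 in cell 10. The most unlike genes were Tceal8 (-0.80), Taf7 (-0.80) and Ubb (-0.79), a ubiquitin gene with a median of 12.27. They took places 8, 3 and 7 from the lowest without cell 13, with rho of -0.76, -0.79 and -0.76. Calr, of the list of complement receptors and binding proteins, went from -0.49 to -0.83 with C3 when cell 13 was left out.

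Apart from C4a, C4b was most like Csf1 (rho 0.86), the growth factor of macrophages, and Aebp1 (0.85), a secreted collagen-binding protein. Derl2 (0.81), a protein of endoplasmic reticulum quality control, and Htra3 (0.80), a secreted serine protease, followed. Csf1 was highest in cell 6 (7.64), as C4b was, followed by cells 1 (7.09), 4 (6.82) and 15 (6.68). Without cell 13 the rho of these 4 genes was 0.77 to 0.83. Lowest were Uqcrc2 (-0.85), a subunit of respiratory complex III, Atp6v1d (-0.81), a subunit of the vacuolar proton pump, and Phf5a (-0.79), a splicing factor. They took places 2, 6 and 7 from the lowest without cell 13, with rho of -0.82, -0.77 and -0.74.

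Of the 5 genes most like C1s1, 3 were of its own cluster (C1s2, C1rb and C1ra), and the others were Dstn (0.82), an actin-depolymerizing protein, and Sepp1 (0.80), the secreted selenoprotein P. Sepp1 was highest in cell 8 (10.83), as C1s1 was. On the log2 values themselves it followed C1s1 less closely, with Pearson's r of 0.54. Without cell 13, C1s2, C1rb and Sepp1 stayed among the 5 genes most like C1s1, and Dstn and C1ra took places 7 and 11. Armcx3 (-0.81), Tagln2 (-0.76) and Cept1 (-0.75) were the most unlike. They took places 1, 10 and 3 from the lowest without cell 13, with rho of -0.81, -0.70 and -0.78.

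Serping1 was most like Il6st (0.87), which encodes the shared receptor chain gp130 of the interleukin-6 family, Mmp3 (0.87), a matrix protease, Sdf4 (0.86), a calcium-binding protein of the secretory pathway, Clu (0.85) and the serpin Serpina3n (0.85). The same 5 genes came first without cell 13, with rho of 0.82 to 0.84. Mmp3 was highest in cell 8 (11.53), as Serping1 was, and lowest in cell 13 (0.58). Serpina3n, an inhibitor of serine proteases, was highest in cells 2 (9.33), 8 (8.53) and 10 (8.51). Eif2b3 (-0.85), Nme1 (-0.82) and Vamp4 (-0.78) were the most unlike. They took places 1, 5 and 9 from the lowest without cell 13, with rho of -0.84, -0.78 and -0.75. The lists of 5 for C3, C4b, C1s1 and Serping1 had no gene in common. With 5 genes taken from 3785 for each, lists of unrelated genes would also rarely overlap, so this does not set the 4 apart. Ranked by Pearson's r in place of rho, 3 of the 5 genes were kept for C3, 2 for C4b, 3 for C1s1 and 2 for Serping1, so membership depended on the measure.

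**Figure D4:**
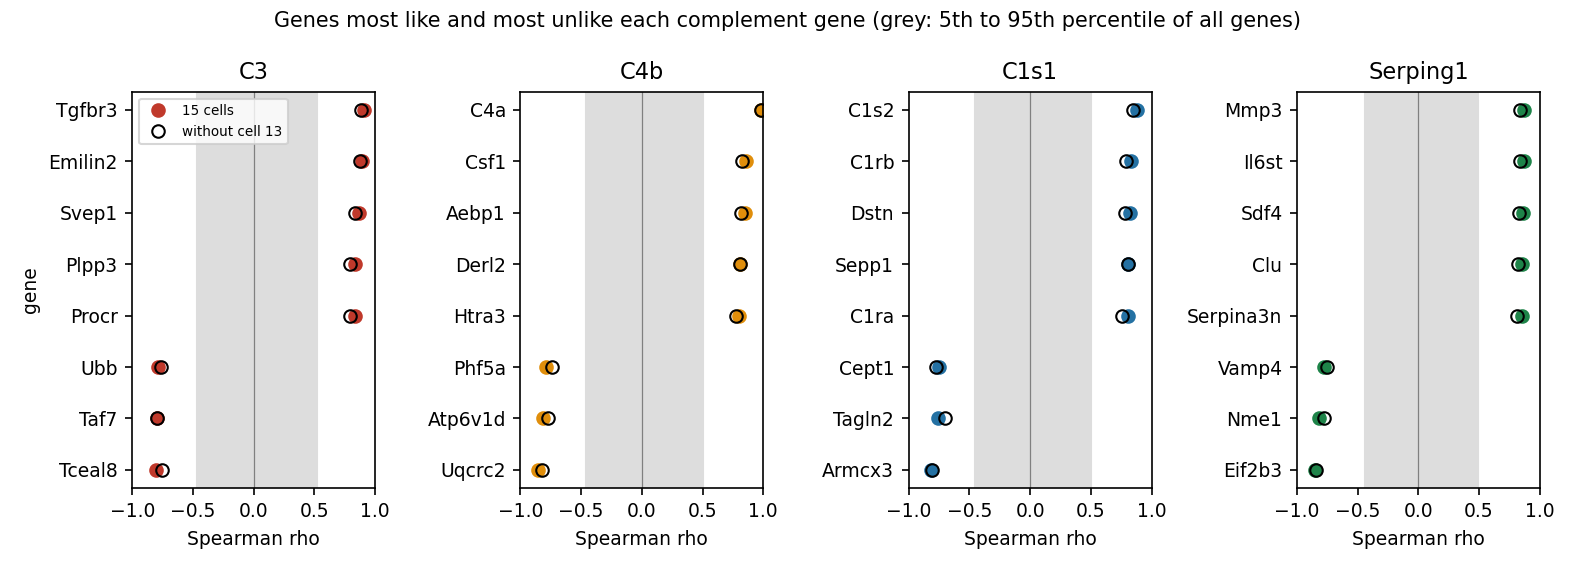
Spearman's rho over cells (horizontal axis) of the 5 genes most like and the 3 genes most unlike each complement gene (vertical axis, 1 panel per complement gene), with all 15 cells (filled) and without cell 13 (open); the grey band holds the 5th to 95th percentile of all genes tested. The named genes were picked by this rho and the band is that of all 15 cells, so their place outside it follows from the choice. They also lie outside this band without cell 13, which removes only 1 of the cells they were picked on. C4a lies at 0.98 for C4b.

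The list that Serping1 followed most closely was the Cd142 stromal list, whose genes mark a further population of fat stroma. Its rho with the mean of the 9 genes was 0.89, and 0.86 without cell 13, and all 9 genes had a positive rho with it, with a median of 0.45. Of the 7425 genes detected in at least 3 cells, the filter of the lists, 50.03% had a positive rho with Serping1. F3, which encodes Cd142 or tissue factor, had rho of 0.80 with Serping1 and Gdf10, a growth factor of the same list, 0.81 (0.75 and 0.77 without cell 13). Both were highest in cells 2 and 8, the cells highest in Serping1. Cell 2 was also the cell highest in Csf1r, whose part in these relations was not tested. C1s1 had rho of 0.53 with this list (0.42 without cell 13), with 8 of 9 genes positive and a median of 0.45, close to that for Serping1. C4b had 0.25 (0.07 without cell 13) and C3 0.08 (-0.13 without cell 13).

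Serping1 also followed the list of other serpins (rho 0.82 over 8 genes, 0.78 without cell 13) and the glucocorticoid response list (0.71 over 9 genes, 0.64 without cell 13). Single genes were less close, with a median rho of 0.33 for the serpin list, which holds Serpina3n, and 0.25 for the glucocorticoid list. With the interferon response list the rho of Serping1 was 0.44. There 15 of 16 genes were positive with a median of 0.31, while C3 had 8 of 16 positive with a median of 0.01. Outside the complement lists, C3 had its highest correlation with the mature adipocyte list (0.50 over 5 genes, 0.41 without cell 13). Next came the coagulation and fibrinolysis list (0.49 over 13 genes) and the Dpp4 progenitor list (0.45 over 11 genes). These were 0.37 and 0.32 without cell 13. None of the 5 mature adipocyte genes was detected in 8 or more cells, and the median rho of single genes with C3 was 0.16 for that list, 0.09 for coagulation and 0.24 for Dpp4. The mature adipocyte list holds the complement gene Cfd, the coagulation list holds Procr, and the Dpp4 list holds Cd55.

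Outside complement, C1s1 had its highest list correlations with the glucocorticoid response list (0.54, and 0.45 without cell 13) and the Cd142 stromal list, followed by the C/EBP list (0.46 over 3 genes, 0.38 without cell 13) and the inflammatory list (0.43 over 17 genes, 0.35 without cell 13). The median rho of single genes with C1s1 was 0.18 for the glucocorticoid, 0.24 for the C/EBP and 0.25 for the inflammatory list. With the committed preadipocyte list, rho was 0.38 over 16 genes for C1s1 (0.49 without cell 13) and -0.19 for Serping1 (-0.12 without cell 13). Il1r1, the receptor of interleukin-1, had rho of 0.71 with C1s1 (0.65 without cell 13). Pdgfra had rho of 0.63 with C1s1 (0.54 without cell 13) and of 0.06 with Serping1. All 4 genes had a negative rho with the cell cycle list, from -0.49 for C3 to -0.30 for C1s1. Without cell 13, where that list was highest (mean 8.88 over its 5 genes), it lay between -0.37 and -0.14. Of 6 cell cycle genes with a row, 1 was detected in 8 or more cells, so this order rests largely on low values. With Serping1, 1 of the 5 genes was positive, Pcna at 0.53 (0.51 without cell 13), while Tyms stood at -0.80.

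**Figure D5:**
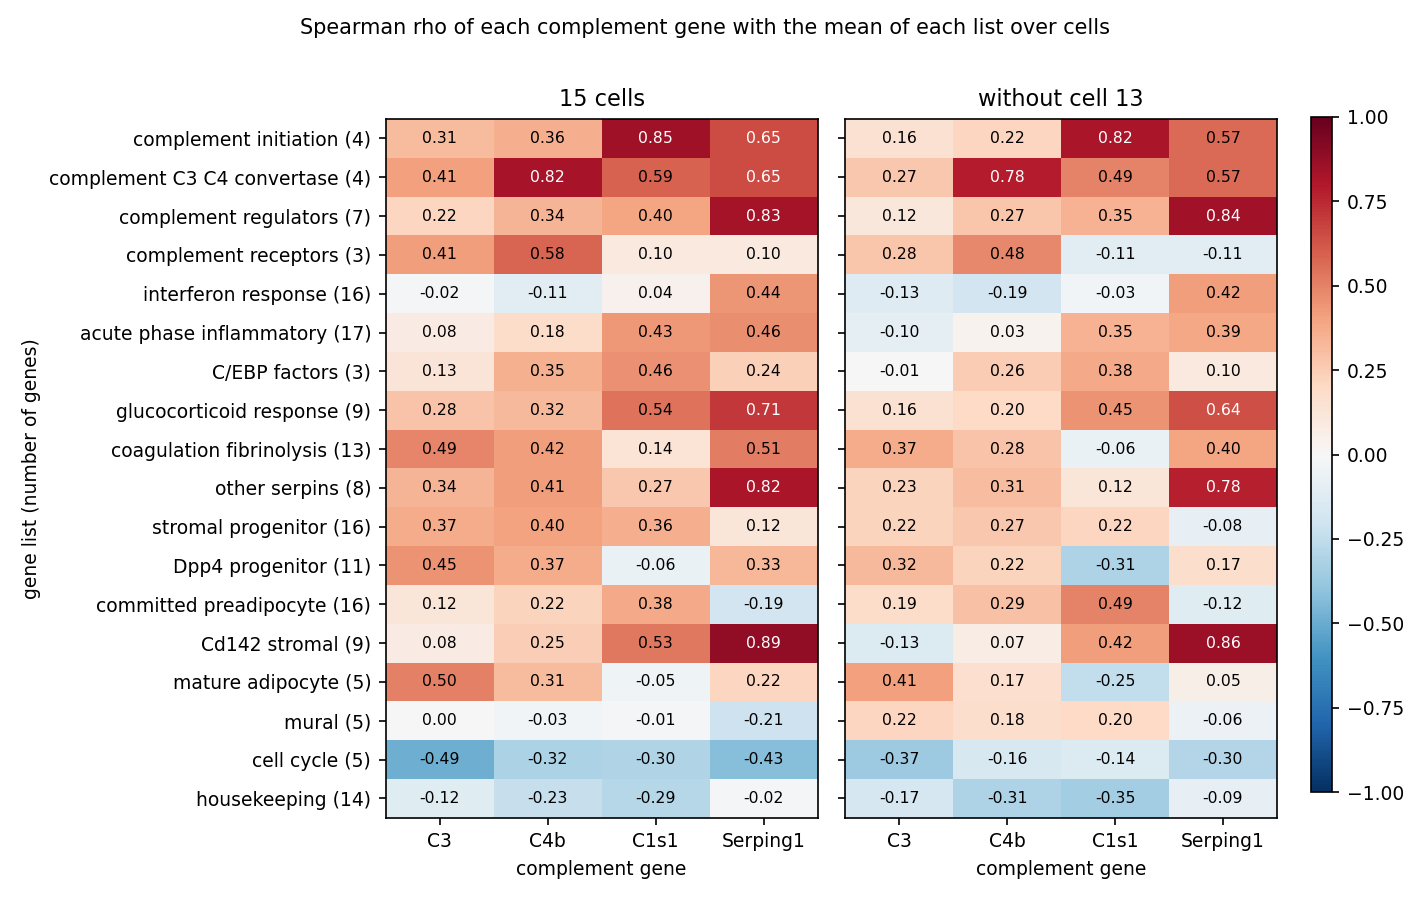
Heat map of Spearman's rho (colour and number) over cells between each of the 4 complement genes (horizontal axis) and the mean of each gene list (vertical axis, number of genes in brackets, the 4 genes left out), with all 15 cells at the left and without cell 13 at the right. Serping1 reaches 0.89 with the Cd142 stromal list, and 0.86 without cell 13, where C1s1 has 0.53 and 0.42 and C3 has 0.08 and -0.13.

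Promoter sequences were at hand for 2 of the 4 genes, C3 and C1s1, and for the copy C1s2. They are shown because C1s1 and C1s2 had similar orders over cells (rho 0.88) and C1s1 and C3 did not (0.21). How far reads shared between C1s1 and C1s2 add to the rho of 0.88 was not tested. C1s1 has 2 listed starts, of which the upstream one is shown. Each line holds the 250 bases before the start site from RefSeq (GRCm38.p6), 5′ to 3′ on the gene's strand, with capitals at motif matches. The stretch is chr17:57228137-57228386 for C3, chr6:124542360-124542609 for C1s1 and chr6:124636086-124636335 for C1s2, all on the minus strand.
C3: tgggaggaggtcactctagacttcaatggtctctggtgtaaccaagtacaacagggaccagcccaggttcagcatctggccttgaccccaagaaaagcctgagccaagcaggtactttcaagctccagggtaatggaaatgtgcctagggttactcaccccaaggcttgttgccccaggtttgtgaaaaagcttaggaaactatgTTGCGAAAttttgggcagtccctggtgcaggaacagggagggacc
C1s1: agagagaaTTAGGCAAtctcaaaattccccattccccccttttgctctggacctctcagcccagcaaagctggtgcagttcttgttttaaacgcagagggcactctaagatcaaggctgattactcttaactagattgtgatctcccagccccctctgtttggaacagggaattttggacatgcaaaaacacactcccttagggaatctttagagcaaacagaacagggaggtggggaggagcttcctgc
C1s2: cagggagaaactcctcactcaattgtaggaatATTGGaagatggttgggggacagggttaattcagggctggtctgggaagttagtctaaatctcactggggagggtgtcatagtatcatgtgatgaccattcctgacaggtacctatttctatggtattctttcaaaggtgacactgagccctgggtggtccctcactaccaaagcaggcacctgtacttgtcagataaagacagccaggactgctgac
The search covered 8 motifs on both strands: the TATA box (TATAAA), the CCAAT box, the C/EBP motif TTNNGCAA (for a family of acute-phase and adipogenic factors), the STAT motif TTCNNNGAA, the Sp1 motif GGGCGG, and by name the interferon-stimulated response element, the glucocorticoid response element and the NF-kB consensus. C3 held 1 match, to the C/EBP motif on the opposite strand, from -45 to -38 before the start, and C1s1 held 1 to the same motif from -242 to -235. The window of the downstream C1s1 start (chr6:124542322-124542571) held no match, so that of C1s1 depends on the start chosen. This motif occurs in 9.57% of the 32536 distinct promoter windows. C1s2 held 1 match, to CCAAT, which occurs in 33.8%. No matches overlapped. The aligned bases of the C1s1 and C1s2 windows were 53.3% identical, against 95.9% for their transcripts. Gaps were allowed, 229 bases were aligned and only the upstream C1s1 start was used. The identity of unrelated windows was not computed, so whether the 2 windows correspond was not tested. Of the C/EBP genes, Cebpd had a median of 6.53 and Cebpb of 3.32. Their rho with C3 was 0.08 and -0.24, and with C1s1 0.19 and 0.24. A match describes letters in a window and was not tested as a binding site.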

How the data were processed

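Libraries of 15 single cells came from the SMART-Seq v4 3′ DE chemistry followed by Nextera XT, per the labels' protocols, and TopHat2, Cufflinks and GRCm38 are named in the submitters' processing notes, with no versions. The deposited table is named as FPKM, but its values end at 13.69 and were read as log2(FPKM + 1), so that cells sum to 592948 FPKM on average. The base was inferred from the values. The authors' deposited log2 values are the same in every cell once sorted, to within 0.0354 above 0.2, so they had been quantile-normalized. This fixes 4369 rows at 1 FPKM or more in each cell, and absolute levels cannot be compared between cells. Read depth is unknown, and a value near 0 cannot be read as absence.

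Values were used as deposited, with columns tied to cells by the number in their names. No doublet caller was run. Between 930 and 1974 rows stood at a cell's lowest value. Of 8441 distinct gene identifiers in 8446 rows 8431 matched the reference table of gene names, and 15 symbols turned into dates were taken from identifiers. Spearman's rho and Pearson's r were computed with numpy 2.4.6 and scipy 1.17.1 and checked on simulated data, and sequences were aligned with Biopython 1.88. Correlates came from genes detected in at least 8 cells, and genes were named by rule: the 5 highest and 3 lowest by rho for each member, without ribosomal and predicted genes, the complement genes with a row, and the extremes of each list. Some genes that this rule names are not reported here. The members and lists were chosen with earlier results of these data known. The labels give 1 group, so no test between groups was possible and no p-value was computed.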

Additional observations from a re-analysis of the deposited data

How the results depend on the processing

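No paired analysis was possible because the labels give 1 group only. The numbers of cells in which the 4 genes were detected, their medians and their median ranks within cells were compared with the values given. The settings were a threshold of 5 FPKM, leaving out cell 13, leaving out cells 1, 11 and 14 (the cells with the most rows at the lowest value), and multiplying by length. All stayed within 1.5 times or 1 SD, but these limits are too wide to show that levels and ranks are stable. The median ranks lie so near the top of their scale that they could not rise 1.5 times. The SD over cells is large beside the shift that a few cells can give a median. The order by median rank did change: after multiplying by length, C3 passed Serping1 and C4b passed C1s1. A rho was counted as moved when it changed by more than 0.1. Leaving out 1 cell at a time gave 0.45 to 0.65 for C3 and C4b, 0.0242 to 0.37 for C3 and C1s1, 0.0769 to 0.42 for C3 and Serping1, 0.38 to 0.68 for C4b and C1s1, 0.30 to 0.56 for C4b and Serping1, 0.52 to 0.72 for C1s1 and Serping1 and 0.29 to 0.48 for their mean.

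C3 and C4b: 0.45 without cell 13, 0.40 without cells 5 and 13, 0.31 without the 2 cells farthest from the median of the gene named first, and Pearson's r of 0.42 without cell 13. C3 and C1s1 had Pearson's r of 0.41, 0.0046 without cell 13 as r and 0.0242 as rho, -0.0220 without cells 5 and 13, 0.33 without cells 1, 11 and 14, -0.16 without the 2 farthest cells, and -0.0769 without cells 6, 13 and 15. C3 and Serping1 had r of 0.43 and rho of 0.0769 without cell 13, 0.11 without cells 5 and 13, -0.11 without the 2 farthest cells, r of 0.0999 without cell 13 and rho of 0.15 without cells 6, 13 and 15. C4b and C1s1 had 0.38 without cell 13, 0.38 without cells 5 and 13, 0.69 without cells 1, 11 and 14, 0.25 without the 2 farthest cells, r of 0.22 without cell 13, 0.27 without cells 6 and 15 and 0.0769 without cells 6, 13 and 15. C4b and Serping1 had 0.30 without cell 13, 0.30 without cells 5 and 13, r of 0.24 without cell 13 and 0.54 without cells 6 and 15. C1s1 and Serping1 had 0.72 without cells 1, 11 and 14 and r of 0.45 without cell 13. The mean over pairs was 0.29 without cell 13, 0.29 without cells 5 and 13, 0.22 without the 2 farthest cells, r of 0.24 without cell 13 and 0.28 without cells 6, 13 and 15. The settings without cells 6 and 15, and Pearson's r without cell 13, were chosen after seeing the data.

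Of the correlations with list means, 27 changed sign. Without cell 13, C1s1 and Serping1 each had -0.11 with the receptor list, C1s1 -0.0286 with the interferon list, C3 -0.10 with the inflammatory list, -0.0066 with the C/EBP list and -0.13 with the Cd142 list, C1s1 -0.0637 with the coagulation list, Serping1 -0.0813 with the stromal list, and C4b and C1s1 0.18 and 0.20 with the mural list. Without cells 5 and 13, C1s1 and Serping1 had -0.0879 and -0.12 with the receptor list, C3 and C4b -0.25 and -0.0769 with the inflammatory list, C3 -0.0879 with the C/EBP list and -0.0934 with the Cd142 list, C1s1 -0.16 with the coagulation list, Serping1 -0.0879 with the stromal list, and C4b and C1s1 0.27 and 0.33 with the mural list. With ranks in place of log2 values, C3, C4b and the mean of the 4 had 0.13, 0.0821 and 0.0679 with the interferon list, C3 -0.0143 with the inflammatory and -0.10 with the C/EBP list, C1s1 0.0036 with the mature adipocyte list and C4b 0.0661 with the mural list. The causes were not tested.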
